A study of Homo sapiens with 6 samples.

Results

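The 9 long noncoding RNAs GAS5, SNHG1, SNHG5, SNHG6, SNHG8, SNHG12, SNHG15, SNHG16 and ZFAS1 are spliced transcripts whose introns carry small nucleolar RNAs (snoRNAs). Their splicing was followed in NCI-H1975 cells, an established human lung adenocarcinoma line, after overexpression of SAM68, the RNA-binding splicing regulator encoded by KHDRBS1. The members were all alternative splicing events listed under these 9 gene symbols with a mean of at least 10 junction reads per library. This gave 213 of the 237 events listed for the hosts, out of 66395 events with that depth in the whole series. Of the other 24 listed events, 21 lay under the minimum and 3 had counts that could not be read with certainty. The shallowest event kept, of GAS5, had a mean of 10.2 reads, and the deepest under the minimum, of SNHG12, had 8.83. GAS5 supplied 123 of the 213 events, SNHG5 34, SNHG1 14, SNHG12 13, ZFAS1 12, SNHG15 7, SNHG8 4, and SNHG6 and SNHG16 3 each.

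The study compared 3 control libraries, from cells transfected with the empty pcDNA3.1 plasmid, with 3 libraries from cells given 2 µg per well of pcDNA3.1 carrying SAM68. Cells were harvested after 48 h, and both groups carried the same vector backbone and lipofection reagent. The study's methods call the libraries biological replicates of 1 cell line, so the spread between them is that of replicates within this line and not of tumors or clones. The methods do not say whether the replicates were transfected in parallel. Transient transfection usually reaches only some of the cells. Each event was measured as the percent spliced in (PSI), the share of junction reads that support the longer or included form after division by the effective length of each form. Differences are given in percentage points as SAM68 minus control.

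Most human box C/D and box H/ACA snoRNAs are not made from genes of their own. They are cut from introns of host transcripts after splicing, when the lariat is opened and exonucleases trim the intron down to the ends protected by the snoRNA-protein complex. Box C/D snoRNAs guide 2′-O-methylation of ribosomal and small nuclear RNAs, and box H/ACA snoRNAs guide pseudouridylation. In the hosts studied here the spliced exons form a noncoding RNA, and such RNAs are often turned over in the cytoplasm by nonsense-mediated decay as they are translated from short reading frames. Splicing and snoRNA release are therefore made from the same introns, and a retained intron leaves its snoRNA inside the host RNA.

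RefSeq (GRCh38.p14) places 35 snoRNAs inside the 9 hosts, 28 of them named as box C/D and 6 as box H/ACA. GAS5 (chr1:173858559-173868882, minus strand) holds 11, SNHG1 (chr11:62851978-62855953, minus strand) 9, SNHG12 (chr1:28578538-28583132, minus strand) 4, SNHG16 (chr17:76557727-76670985, plus strand) and ZFAS1 (chr20:49278178-49299600, plus strand) 3 each, and SNHG5 (chr6:85650491-85678932, minus strand) 2. SNHG6, SNHG8 (chr4:118278703-118285316, plus strand) and SNHG15 (chr7:44983019-44986961, minus strand) hold 1 each. The box C/D snoRNAs lay a median of 81 nucleotides from the 3′ splice site of their intron in the GENCODE v44 canonical transcript, or in another transcript where the canonical one had no such intron, and 15 of 28 lay 60 to 90 nucleotides away. The distances ranged from 62 to 52211 nucleotides, and no branch point was located.

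The sequences below are snoRNAs of the 3 hosts described first in the following paragraphs, read from GRCh38 in the sense of the host RNA. In the snoRNAs, capitals mark the C box (searched as TGATGA or TGATGT) and the D box (CTGA) of a box C/D snoRNA, or the ACA box near the 3′ end of a box H/ACA snoRNA. SNORD47 (chr1:173864369-173864445) and SNORD79 (chr1:173865350-173865430) lie in GAS5 introns 10 and 7. SNORD50A (chr6:85677294-85677368) and SNORD50B (chr6:85677589-85677659) are the 2 snoRNAs of SNHG5, and no tested retained intron event covers either. SNORA61 (chr1:28579764-28579893) lies in SNHG12 intron 4, behind the alternative splice site described next. The boxes were searched in the sense strand only.
SNORD47: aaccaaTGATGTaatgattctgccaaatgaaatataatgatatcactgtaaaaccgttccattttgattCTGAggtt
SNORD79: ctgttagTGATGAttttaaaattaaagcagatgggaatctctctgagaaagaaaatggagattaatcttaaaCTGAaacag
SNORD50A: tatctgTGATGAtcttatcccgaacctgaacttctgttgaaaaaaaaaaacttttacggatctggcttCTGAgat
SNORD50B: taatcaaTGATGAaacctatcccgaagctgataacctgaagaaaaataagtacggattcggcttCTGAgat
SNORA61: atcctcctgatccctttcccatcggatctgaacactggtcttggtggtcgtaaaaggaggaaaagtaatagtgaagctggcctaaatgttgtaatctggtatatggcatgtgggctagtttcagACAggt

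The SNHG12 values turn on 2 alternative 5′ splice sites of exon 4, 30 nucleotides apart. The stretch chr1:28579862-28579981 (minus strand) is shown from the start of exon 4 into SNORA61, with the 30 bases that only the longer exon keeps in capitals.
SNHG12 exon 4 and intron 4: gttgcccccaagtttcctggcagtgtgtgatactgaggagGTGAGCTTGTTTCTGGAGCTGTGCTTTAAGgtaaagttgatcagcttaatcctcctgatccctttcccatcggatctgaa
The last 3 bases of the exon and the first 6 of the intron are compared below for these sites and for the alternative 5′ splice sites of GAS5 exon 7, with the first 2 bases of the intron in capitals. They show that all 4 sites begin with GT and differ in the bases around it.
SNHG12 upstream site (shorter exon): gagGTgagc
SNHG12 downstream site (longer exon): aagGTaaag
GAS5 upstream site (shorter exon): tggGTaagg
GAS5 downstream site (longer exon): aagGTacat
The downstream SNHG12 site contains TAAA, the DNA form of the UAAA core that SAM68 is known to bind. This was the only match in the 200 bases centred on the upstream site, searched in the sense strand, and 37.8% of the 3010 tested alternative 5′ splice site events held at least 1 match in the same window.

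Transfection raised SAM68 RNA in every library. KHDRBS1 junction reads, scaled to an equal library total (RPM), stood at 311, 329 and 316 RPM in the control libraries and at 1232, 1261 and 1277 in the SAM68 libraries, a log2 fold change of 1.98 (SE 0.0473, limma adjusted p = 1.08e-21). These reads include any that came from the plasmid. Each library had 5444156 to 6331029 reads over the events that stood for the 10146 genes tested, and 234030 to 286508 reads over the member events. Of the 9 epithelial markers listed, KRT8, KRT18 and KRT7 were tested and none passed (all 3 had an unadjusted p below 0.05 in limma), with summed levels of 733 to 996 RPM in control and 761 to 771 RPM in SAM68 libraries. KRT7 had a log2 fold change of -0.89 and KRT18 of 0.12, both without overlap between groups, and KRT8 of -0.41 with overlap. KRT7 was read through a shallow event, with 8 to 26 reads per library. Groups without overlap were found in 16.8% of all genes. The highest sum came from control replicate 1, where KRT8 stood at 520 RPM against 253 and 237 in the other control libraries. The leukocyte list was measured through CD68 alone (92.1 to 102 against 98.1 to 104 RPM), and no fibroblast or endothelial marker reached the minimum of reads. Genes are seen in these tables only through their alternative events, so an unlisted marker may still be expressed.

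No member event passed the call, an adjusted p below 0.05 with a PSI difference of at least 10 points in a quasi-binomial test. Among all 66395 events 18 passed, or 0.0271%, and against so low a share 0 of 213 is not a result about the hosts. None reached an adjusted p below 0.05 either, against 65 of all events (0.0979%), and the smallest adjusted p of a member was 0.359. At an unadjusted p below 0.05 there were 22 member events, 10.3% against 8.43% of all events. Without 1 library each there were 8 to 15, beside 3.37% to 3.78% of all events. A test on pooled counts, which ignores the spread between libraries, gave 17 member events with an adjusted p below 0.05, against 6.24% of all events. With limma on the logit of PSI there were 0, and 8 at an unadjusted p below 0.05, against 4.59% of all events. The 22 events share reads: leaving aside 4 pairs of mutually exclusive exons, the other 18 rest on 13 distinct skipping junctions. The study's own list of events regulated by SAM68 does include SNHG12 events. That list came from rMATS, with cutoffs on FDR and PSI difference, and not from the quasi-binomial test. The reason for the difference in calls was not tested.

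The differences were also small. The median PSI difference over the 213 events was -0.0588 points and the median absolute difference 0.432 points, beside 1.24 points over all tested events. The hosts were also read more deeply, with a median of 667 reads per library over a member event and 111 over all events, and the part of depth in this difference was not tested. PSI differed by less than 1 point in 139 member events and in 29672 of all events. It was above 95% in both groups in 97 member events and below 5% in both in 30, beside 31830 and 9454 of all 66395 events. The groups did not overlap in 14 events, or 6.57%, where 6.12% of all events with a PSI in all 6 libraries did so. A difference of 10 points or more was found in 7 member events, against 4756 of all 66395, and these 7 averaged between 10.2 and 62.8 reads per library.

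**Figure D1:**
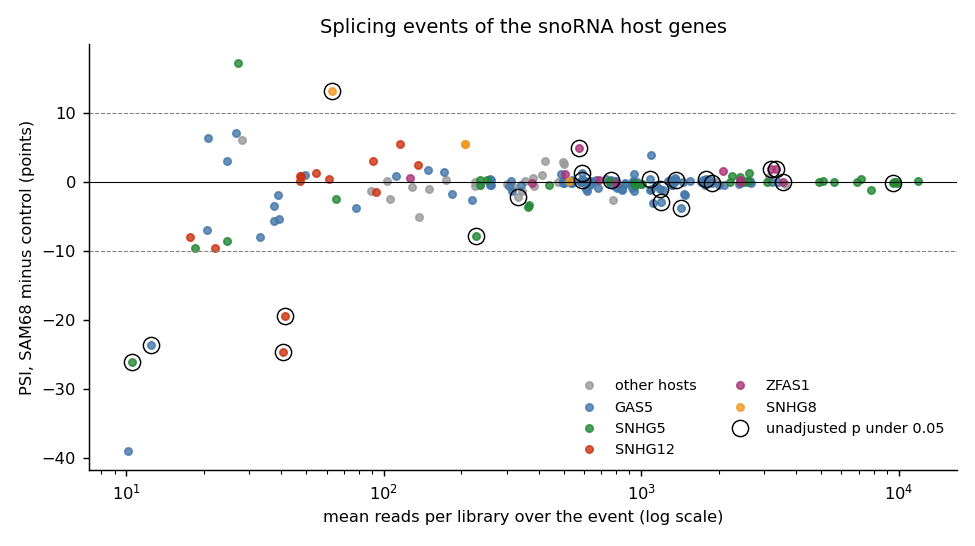
PSI difference (SAM68 minus control, percentage points) of each of the 213 member events against its mean reads per library on a log scale, coloured by host, with rings around events with an unadjusted p below 0.05 and dashed lines at 10 points. The 7 events at or beyond the dashed lines average at most 62.8 reads per library.

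In SNHG12 the shorter form of exon 4 took a larger share of reads in all 3 SAM68 libraries than in any control library. This difference was not called in the quasi-binomial test, whereas the study lists SNHG12 events among its own, from rMATS. PSI of the longer exon (chr1:28579912-28579981, of which chr1:28579912-28579941 is the alternative stretch) was 89.6%, 95.8% and 89.6% in control and 66.4%, 72.5% and 78.0% in SAM68 libraries. No overlap was seen between groups, with means of 91.6% ± 3.61 and 72.3% ± 5.80 (SD, n = 3 each). The difference of -19.4 points had an unadjusted p of 0.00952 in the quasi-binomial test and an adjusted p of 0.513, and the exact permutation p was 0.1, the smallest that 3 against 3 libraries allow. Each library held only 29 to 48 reads over the event.

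Counted as splice junctions alone, the shorter exon was joined to exon 5 in 4 of 36, 1 of 20 and 4 of 28 reads in control libraries. In SAM68 libraries it was 12 of 32, 9 of 33 and 9 of 34 reads. These are shares of 11.1%, 5% and 14.3% against 37.5%, 27.3% and 26.5%, all higher in SAM68 libraries. The longer exon's own junction had 75 reads in control and 69 in SAM68 libraries, so that the counts that differ are the 9 and 30 reads of the shorter exon's junction.

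The same 9 and 30 reads enter a retained intron event, which sets the unspliced intron 4 with SNORA61 against splicing from the upstream site. Its PSI was 80.0%, 95.1% and 82.2% in control and 52.0%, 62.5% and 69.0% in SAM68 libraries, a difference of -24.6 points (unadjusted p = 0.00806, adjusted p = 0.522 in the quasi-binomial test, adjusted within its event type). It is not a second measurement of the shift. When retention of intron 4 was set against splicing from the downstream site, PSI was 25.6%, 44.1% and 28.4% in control and 29.8%, 34.2% and 34.2% in SAM68 libraries, with means of 32.7% ± 9.997 and 32.8% ± 2.54 (n = 3 each). SNORA61 begins 18 nucleotides after the downstream site. Retention of the introns with SNORA44 and SNORA16A was low, at mean PSI values of 0.337% and 0.639% in control and 1.13% and 1.99% in SAM68 libraries, with adjusted p = 0.780 and 0.687. The groups did not overlap for the SNORA16A intron, which rests on 2 and 7 retained reads.

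GAS5, named for its rise in growth-arrested cells, carries 10 box C/D snoRNAs and SNORA103 in its introns and gave the most events. Exon 6 (chr1:173865857-173865894) was included at 99.5% to 100% in all 6 libraries over 3115 to 3633 reads each. A common alternative lay at exon 7, where a pair of 5′ splice sites 39 nucleotides apart was used. PSI of the longer exon was 23.3%, 26.1% and 22.5% in control and 23.0%, 23.0% and 25.9% in SAM68 libraries, means of 23.99% ± 1.90 and 23.95% ± 1.69 (n = 3 each, adjusted p = 0.997 in the quasi-binomial test, adjusted within its event type) over 2358 to 2825 reads per library. Exon 10 (chr1:173864484-173864506), of 23 nucleotides, was included at 88.2% ± 0.795 in control and 88.4% ± 0.986 in SAM68 libraries.

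Retention of the snoRNA introns of GAS5 was low throughout. Intron 10 (chr1:173864305-173864483), which holds SNORD47, was retained at 3.90%, 4.80% and 4.92% in control and 2.84%, 3.85% and 3.74% in SAM68 libraries. Control and SAM68 libraries did not overlap, and the difference was -1.06 points (unadjusted p = 0.0173, adjusted p = 0.536, quasi-binomial), or -1.97 points with PSI taken without effective lengths. Intron 7 (chr1:173865283-173865470), which holds SNORD79, was retained at 4.29%, 4.86% and 5.49% in control and 4.07%, 3.54% and 4.05% in SAM68 libraries when measured against the longer exon 7, a difference of -0.992 points without overlap (adjusted p = 0.623). Measured from the shorter exon 7, which more reads used, the intron overlapped between groups at 6.50% ± 1.32 and 6.02% ± 0.392 (SD, n = 3 each). Intron 9 (chr1:173864507-173864674), which holds no snoRNA in RefSeq, was retained at 3.64% ± 0.546 in control and 3.80% ± 0.535 in SAM68 libraries.

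**Figure D2:**
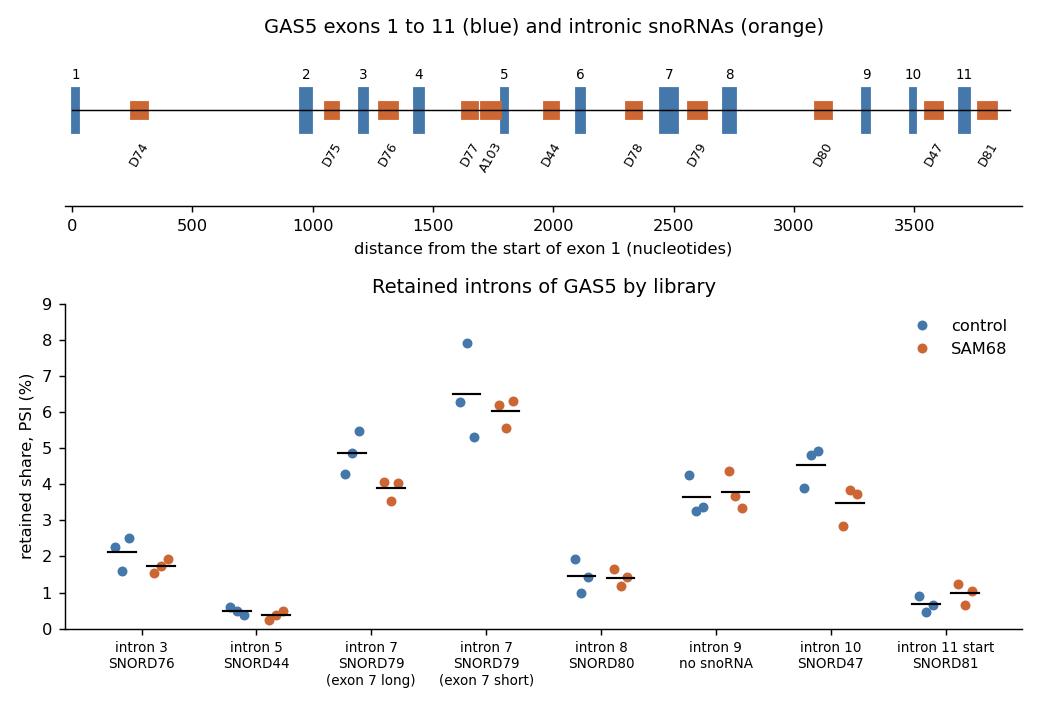
Top, GAS5 exons 1 to 11 and the snoRNAs in its introns to scale, in nucleotides from the start of exon 1. Bottom, retained share (PSI, %) of the tested single introns by library, with bars for the means of 3 libraries per group; every mean lies below 7%, and the groups separate at intron 10 and at intron 7 measured against the longer exon 7.

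The GAS5 events with the smallest p were of rare junctions. Exon 8 (chr1:173865229-173865282) was skipped between exon 7 and exon 9 by 0, 5 and 6 reads in control and by 0 reads in each SAM68 library, so that PSI was 99.5% ± 0.398 and 100% (unadjusted p = 0.00453, adjusted p = 0.390, quasi-binomial). A count of 0 among the 3210 reads of the SAM68 libraries allows up to 0.0935% of reads. The same junction gave a 3′ and a 5′ splice site event with unadjusted p of 0.00690 and 0.00843, so 3 of the 6 member events below 0.01 are this junction. Exon 9 (chr1:173864675-173864704) was skipped by 0 reads in all 3 control libraries and by 3, 5 and 0 reads in SAM68 libraries. Where exon 6 was set against exon 7 as mutually exclusive exons, the share of exon 6 was 65.9%, 67.8% and 66.7% in control and 63.0%, 65.05% and 61.0% in SAM68 libraries against the shorter exon 7 (unadjusted p = 0.0163, adjusted p = 0.412). The widest GAS5 difference, -38.9 points for exon 3 in 1 context, came from 2 to 17 reads per library and had values from 0% to 100%.

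SNHG5, the host of SNORD50A and SNORD50B, was the deepest member, with 9356 to 13260 reads per library over its most-read event. That event is an 81-nucleotide exon (chr6:85677795-85677875) included at 97.5%, 96.8% and 97.6% in control and 97.5%, 97.3% and 97.5% in SAM68 libraries. The difference of 0.151 points lay within the spread of the control libraries (adjusted p = 0.641, quasi-binomial). This exon's 3′ splice site was used in 98.6% to 99.3% of reads over a site 7 nucleotides further in. A rarer site 24 nucleotides upstream was used at 0.203%, 0.313% and 0.181% in control and 0.0965%, 0.117% and 0.159% in SAM68 libraries, without overlap (unadjusted p = 0.0187, adjusted p = 0.670). An intron of 505 nucleotides within the first canonical exon (chr6:85678189-85678693), with no snoRNA, was retained at 32.1%, 42.2% and 41.9% in control and 30.7%, 33.1% and 28.7% in SAM68 libraries. The difference was -7.88 points (unadjusted p = 0.0198, adjusted p = 0.536), and the lowest control library lay among the SAM68 libraries. A pair of shallow SNHG5 events differed by 17.1 and -26.1 points over 4 to 44 reads per library, in both cases with SAM68 libraries that overlapped or enclosed the control values.

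ZFAS1, the host of SNORD12, SNORD12B and SNORD12C, had 4 of 12 events with an unadjusted p below 0.05, where 8.43% of all events had one, and these 4 are not independent since most share reads. Of these, 3 involve exon 3 (chr20:49280485-49280570), which is shown with 20 bases on each side and its own bases in capitals.
ZFAS1 exon 3: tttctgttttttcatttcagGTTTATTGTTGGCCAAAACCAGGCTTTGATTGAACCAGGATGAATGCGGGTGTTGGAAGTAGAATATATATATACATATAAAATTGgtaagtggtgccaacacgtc
In its event with the smallest p among skipped exons, exon 3 was included at 90.5%, 91.0% and 90.4% in control and 91.4%, 92.6% and 93.3% in SAM68 libraries. The groups did not overlap and differed by 1.79 points (unadjusted p = 0.0117, adjusted p = 0.480, quasi-binomial) over 2926 to 3520 reads per library, or by 1.16 points with PSI taken without effective lengths. Set against exon 4 (chr20:49280903-49280964) as its alternative, exon 3 made up 88.1%, 88.7% and 87.0% of reads in control and 89.9%, 89.99% and 89.5% in SAM68 libraries, a difference of 1.86 points (adjusted p = 0.359, the smallest of any member). Exon 2 set against exon 4 made up 33.8%, 35.9% and 34.1% in control and 40.6%, 40.03% and 37.8% in SAM68 libraries (unadjusted p = 0.0350, adjusted p = 0.530). No overlap was seen between groups in these 3 events, which share reads: the first and second have the same exon 3 counts, and the exon 4 counts of the latter pair are nearly the same. The remaining event of the 4 with an unadjusted p below 0.05 (quasi-binomial) overlapped between groups. Exon 4 on its own overlapped between groups, at 62.0% ± 1.62 and 63.5% ± 1.71 in its deepest event.

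SNHG8, the host of SNORA24, carries a 31-nucleotide exon (chr4:118279107-118279137) directly before the snoRNA intron. It is shown with 20 bases on each side and its own bases in capitals, followed by SNORA24 (chr4:118279190-118279320) with its ACA box in capitals.
SNHG8 exon: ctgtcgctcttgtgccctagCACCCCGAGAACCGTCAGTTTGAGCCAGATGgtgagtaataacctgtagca
SNORA24: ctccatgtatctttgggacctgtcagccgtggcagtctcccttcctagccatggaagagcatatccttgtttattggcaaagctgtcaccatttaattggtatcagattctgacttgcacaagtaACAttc
The exon was included at 71.8%, 68.4% and 63.8% in control and 75.6%, 76.9% and 90.9% in SAM68 libraries. Control and SAM68 libraries did not overlap, and the difference was 13.1 points (unadjusted p = 0.0359, adjusted p = 0.565, quasi-binomial) over 53 to 77 reads per library. Its skipping junction had 15, 21 and 24 reads in control and 11, 11 and 4 in SAM68 libraries, and the same reads enter 2 further SNHG8 events, with differences of 5.49 and 5.50 points and overlapping groups. Without SAM68 replicate 3, the library with 4 skipping reads, the difference of 13.1 points was 8.25 points and that of 5.50 points was 3.16 points. The next exon of SNHG8 was included at 99.5% to 100% in every library.

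The 4 other hosts showed no member with non-overlapping groups save 1 in SNHG1. In SNHG1, which carries 8 box C/D snoRNAs, exon 6 (chr11:62854018-62854064) was included at 81.3%, 81.2% and 84.1% in control and 87.6%, 84.0% and 82.9% in SAM68 libraries (adjusted p = 0.565). Exon 4 (chr11:62854888-62854938) was included in at most 43.9% of reads in any library, at means of 39.4% ± 2.36 and 40.4% ± 4.87 (n = 3 each). Retention of intron 6, which holds SNORD29, was 5.51% ± 1.29 in control and 4.12% ± 0.720 in SAM68 libraries (adjusted p = 0.614), with 1 SAM68 library among the control values. The non-overlapping event was a 3′ splice site 16 nucleotides upstream of exon 7, used at 2.07% and 1.36% (adjusted p = 0.708, quasi-binomial).

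In SNHG6, the host of SNORD87, exon 2 was included at 84.2%, 84.2% and 81.9% in control and 85.9%, 81.5% and 82.1% in SAM68 libraries, over 3260 to 3971 reads per library. In SNHG16, the host of SNORD1A, SNORD1B and SNORD1C, a 99-nucleotide exon (chr17:76558945-76559043) that lies between SNORD1C and SNORD1B was included in 48.3% to 55.8% of reads, with overlapping groups and means of 53.0% ± 3.88 and 50.3% ± 2.68. In SNHG15, the host of SNORA9, a 139-nucleotide extension at the 3′ end of an exon (chr7:44985882-44986020) was kept at 7.31%, 5.01% and 3.67% in control and 3.22%, 4.10% and 2.18% in SAM68 libraries. That difference was -2.16 points (unadjusted p = 0.0387, adjusted p = 0.644, quasi-binomial), and 1 SAM68 library lay above the lowest control library. It was -1.17 points without control replicate 1 and -3.95 points with PSI taken without effective lengths.

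**Figure D3:**
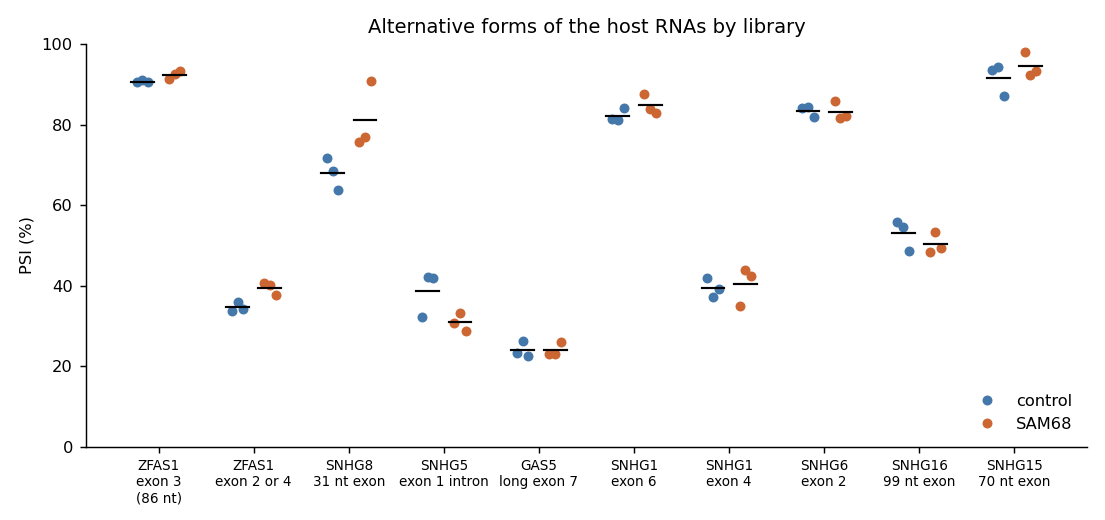
PSI (%) of 10 alternative forms of 8 host RNAs, with points for libraries and bars for the means of 3 control (blue) or 3 SAM68 (orange) libraries. The groups separate for the ZFAS1 events and the SNHG8 exon and overlap for the other forms.

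The 21 tested retained intron events of the hosts were lower in SAM68 libraries in 13 cases and higher in 8, while 55.8% of all 2591 tested retained introns were lower. An unadjusted p below 0.05 was found in 3 of the 21, against 9.03% of all retained introns. The 16 that hold a snoRNA ranged from 0.337% to 93.9% in control (median 4.82%) and had a median of 3.79% in SAM68 libraries, with 10 lower and 6 higher. These events repeat introns: SNORD79, SNORD80, SNORD47, SNORD29 and SNORA61 each lie in more than 1 of them. As for SNHG12 intron 4, the PSI of such an event depends on the splice site that the intron is set against. Summed over the 14 introns that do not overlap each other, with or without a snoRNA, retention was 1.91%, 1.99% and 1.74% in control and 1.84%, 1.75% and 1.91% in SAM68 libraries. The sum pools reads, so deeply read introns weigh most in it, and its 2 introns of SNHG5 hold no snoRNA. The groups overlapped in this sum, at 1.88% ± 0.128 and 1.83% ± 0.0788 (n = 3 each). For the 7 such introns of GAS5 the sums were 2.62% ± 0.146 and 2.45% ± 0.139, and for the 2 of SNHG1 5.31% ± 0.714 and 3.95% ± 0.981, with overlapping groups in both. For the 2 introns of SNHG5 they were 0.771% ± 0.141 and 0.772% ± 0.0371, and for the 3 of SNHG12 9.90% ± 4.15 and 9.46% ± 2.56. Taken singly, 2 of the 2 SNHG5 introns and 0 of the 3 SNHG12 introns were lower in SAM68 libraries, so a sum need not follow its introns.

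The amount of host RNA was read from the junction reads of the most-read event of each gene, in RPM. These values are not per length, so they are compared between groups and not between genes, and in bulk RNA fewer transfected cells and less RNA per cell cannot be told apart. SNHG5 was the only member called, at 2183, 2104 and 2220 RPM in control and 1910, 1989 and 1718 in SAM68 libraries. The groups did not overlap, and the log2 fold change was -0.21 (SE 0.0445, limma adjusted p = 0.0237), a fall of the fitted level to 0.862 of control. Of all 10146 genes 42 were called (0.414%), 30 of them lower (0.296%) and 12 higher (0.118%). No member reached a log2 fold change of 1 in size, as 0.0493% of all genes did among those called. An unadjusted p below 0.05 was found in 3 of the 9 hosts (SNHG5, SNHG6 and SNHG15) and in 12.1% of all genes. The SNHG5 call was lost with median-ratio scaling (log2 fold change -0.18, adjusted p = 0.108). It was also lost without control replicate 1, 2 or 3 (log2 fold change -0.21, -0.24 and -0.20, adjusted p = 0.223, 0.122 and 0.118) and without SAM68 replicate 1 (log2 fold change -0.23, adjusted p = 0.0776). In these 4 fits the genes called among all tested fell from 42 to 5, 4, 10 and 10.

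The other hosts were not called. SNHG6 stood at 654, 633 and 641 RPM in control and 578, 600 and 599 in SAM68 libraries, without overlap (log2 fold change -0.12, limma adjusted p = 0.300). SNHG8 stood at 88.9, 94.0 and 98.3 against 86.4, 80.8 and 84.8, also without overlap (log2 fold change -0.16, adjusted p = 0.487), and read through its second most-read event its log2 fold change was -0.45 (adjusted p = 0.0831). Non-overlapping groups were found in 16.8% of all genes. SNHG15 had the largest positive value, at 67.1, 80.4 and 82.9 in control and 80.6, 103 and 94.8 in SAM68 libraries (log2 fold change 0.27, adjusted p = 0.248), with overlap. The log2 fold changes of GAS5 (-0.03), SNHG1 (0.02), SNHG16 (0.07), ZFAS1 (0.08) and SNHG12 (0.18) had adjusted p of 0.573 or more. Leaving out 1 library in turn, the value ran from 0.10 to 0.32 for SNHG12, from 0.05 to 0.10 for ZFAS1 and from 0.18 to 0.37 for SNHG15. Among these, the sign of GAS5 turned with median-ratio scaling (0.0043) and that of SNHG16 with the second most-read event (-0.01).

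**Figure D4:**
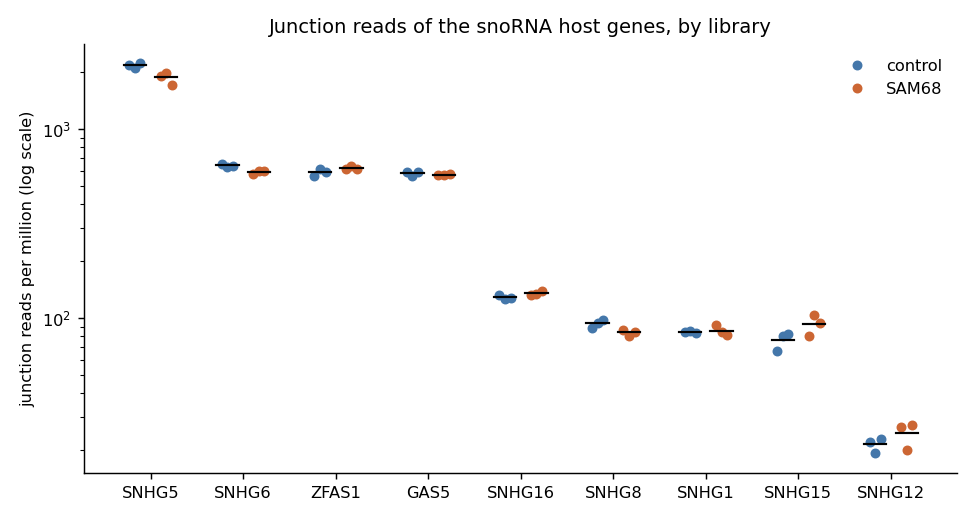
Junction reads (RPM) of the most-read event of each host gene on a log scale, with points for libraries and bars for the means of 3 control (blue) or 3 SAM68 (orange) libraries. The groups separate for SNHG5, SNHG6 and SNHG8, with the SAM68 libraries lower, and overlap for the other 6 hosts.

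The genes that act on snoRNAs and on their hosts were read in the same way. None of the 4 box C/D core proteins was called, which include the methyltransferase FBL (log2 fold change -0.01) and NOP58, which held the largest difference among them (-0.26, unadjusted p = 0.00601, limma adjusted p = 0.194). Of the 6 box H/ACA proteins 5 were tested and none was called, with the pseudouridine synthase DKC1 at -0.10 and GAR1 at -0.23. All 7 assembly factors, among them the ATPases RUVBL1 (0.04) and RUVBL2 (-0.07), and the 3 genes listed for lariat debranching, with the debranching enzyme DBR1 at -0.18, were tested and none was called. Of the 14 nonsense-mediated decay genes 13 were tested and none was called, with the helicase UPF1 at 0.04, UPF2 at -0.60 (1 SAM68 library at 4.78 RPM, the others at 14.1 and 13.96) and SMG9 at 0.17. At an unadjusted p below 0.05 there were 1, 1, 0, 0 and 3 genes in these lists, in the order given, beside 12.1% of all genes. The list medians ran from -0.18 for debranching to -0.03 for the box C/D proteins, beside -0.03 over all genes. No splicing event of these 5 lists was called, among 39, 13, 47, 23 and 94 tested, where 0.0271% of all events were.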

How the data were processed

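RNA-seq of 3 control and 3 SAM68 libraries was deposited as 5 rMATS tables (skipped exons, alternative 3′ and 5′ splice sites, mutually exclusive exons, retained introns). Per the labels and methods, the authors made paired-end 150 bp reads, filtered them with fastp 0.20.0, aligned them to GRCh38 with HISAT2 2.1.0 (the submitters' processing notes also name CASAVA 1.4) and counted inclusion and skipping junction reads. The rMATS version and library strandedness are not given in the sources used here, so reads of overlapping antisense genes cannot be told apart. The deposited count columns hold 3 read counts in each cell, and the deposited inclusion levels are fractions used only to check them. The columns are named only as list 1 and list 2. List 1 was taken as control because the study's plot of PKM inclusion levels gives the levels of list 1 to its control libraries, and KHDRBS1, which was not used for the assignment, was higher in all 3 libraries of list 2. The order within a list names a replicate by position only. The authors' comparison columns (p-value, FDR and difference of inclusion level) were not used. In the alternative 3′ splice site table, spreadsheet formatting had merged some counts: 162 rows were recovered from the inclusion levels (4 of the hosts), 679 rows (3 of the hosts) were kept as printed although another reading was possible, and 113 rows (3 of the hosts) were left out. 

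PSI was computed per library with effective lengths. Events averaging 10 or more reads were tested in a quasi-binomial model with the dispersion moderated per event type (limma 3.58.1, R 4.3.3), with Benjamini-Hochberg adjustment within type over all events. Calls needed an adjusted p below 0.05 and 10 points. For genes the most-read event stood in, and limma with a trend was run on log2 of RPM (reads scaled to an equal library total) with a pseudocount of 0.5. The count model planned for this step was not used. Fits were tested on simulated data. Replicates differed by more than sampling noise (chi-square per degree of freedom 3.14 to 4.54). Named events were those with the most reads per gene and type, the smallest p per gene, an adjusted p below 0.05 in any setting or an unadjusted p below 0.01, and the SNHG12 events among the study's own; others were chosen after their values were seen. Members and lists were chosen with earlier results of these data known. Limits on counts of 0 take 3 counts and cover counting error only.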

Additional observations from a re-analysis of the deposited data

How the results depend on the processing

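With the pooled-count likelihood ratio test 2 member events were called, both of SNHG12, and it was the only alternative run that called any. It also raised 17 named events past an adjusted p of 0.05. Leaving out each library in turn called 0 member events in every case and 0 to 1 member genes. Over all events these fits called only 2 or 3, against 18 with all libraries, so their 0 member events say little. The count of called member genes fell from 1 to 0 with median-ratio scaling and with a log2 fold change limit of 1. The dispersion floored at 1 before moderation and the pseudocount of 1 were chosen after seeing the data, and called 0 member events and 1 member gene. Without 1 library each, the SNHG12 difference of exon 4 ran from -22.2 to -16.4 points and that of ZFAS1 exon 3 from 1.36 to 2.31 points, and summed retention from -0.113 to 0.0123 points. Differences changed sign when 1 library was left out, with the range over the 6 fits: a GAS5 3′ splice site -0.216 to 0.112 and GAS5 exon 6 -0.129 to 0.118, SNHG5 3′ site -0.288 to 0.0518, 5′ site -0.435 to 0.548, 78-nucleotide intron -0.0661 to 0.00108 and 81-nucleotide exon -0.102 to 0.279, SNHG6 exon 2 -1.66 to 0.546, SNHG8 exon 2 -0.0806 to 0.150, an SNHG12 3′ splice site (-9.59 with all libraries) -16.5 to 4.30, an SNHG12 5′ splice site -4.36 to 3.81 SNHG12 exon 2 (2.37 with all libraries) -1.11 to 5.06, and SNHG15 3′ site -0.0536 to 0.456 points. With PSI taken without effective lengths, other differences that moved by over 1.5 times without changing sign included the introns with SNORD29 (-1.39 to -2.52) and SNORA16A (1.35 to 2.62), an SNHG8 5′ splice site (5.50 to 3.10), a GAS5 3′ splice site (1.21 to 0.610) and summed retention (-0.0432 to -0.0746). The log2 fold change of SNHG1 ran from -0.0216 to 0.0604. GAS5 reached 0.0043 with median-ratio scaling and SNHG16 -0.0109 with the second most-read event. The cause was not tested. Over all events 18 were called, 94 with the dispersion floored before moderation, 1354 in the pooled-count test, 2 with unmoderated dispersion and 3 with limma on the logit. Over all genes 42 were called, 25 with median-ratio scaling, 4, 5, 10 and 10 without control replicate 2, control replicate 1, control replicate 3 or SAM68 replicate 1, and 100 and 92 without SAM68 replicate 2 or 3. The edgeR and DESeq2 fits were not run. No paired analysis was possible because the lists carry no replicate numbers. The 7 member events with differences of 10 points or more rest on means of 10.2 to 62.8 reads per library, which limits their precision.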

Other observations

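Of 19 other snoRNA host long noncoding RNAs listed, 7 had an event and all 7 were tested (SNHG4, SNHG7, SNHG11, SNHG17, SNHG20, SNHG21 and EPB41L4A-AS1). None was called in junction reads, with log2 fold changes from -0.79 for SNHG20, at 6.06 ± 2.31 and 3.17 ± 0.441 RPM (junction reads scaled to library total; SD, n = 3 each), to 0.34 for SNHG11 and a smallest limma adjusted p of 0.345. Of their 28 tested splicing events none was called, where 0.0271% of all events were. An unadjusted p below 0.05 was found in 1 of them, or 3.57% against 8.43% of all events. That event was an exon of SNHG17 included at 8.28% in control and 20.2% in SAM68 libraries over a mean of 32.2 reads per library, without overlap (quasi-binomial adjusted p = 0.565).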
